A study of Rattus norvegicus with 4 samples.

Results

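The genes described here are 33 targets and regulators of the transcription factor p53 in rat oligodendrocyte precursor cells (OPCs). The p53 target Cdkn1a is set apart from them. The members were chosen on the siGPR17 against siNEG values of these same 4 arrays, in which targets of p53 had been noted before the list was drawn up. Their values are therefore a description. Counts of calls among them are part of this description, and nothing is supported with them. A probe could be matched to 30 of the 33 genes, out of 16568 genes with a matched probe in all. The probe was bright enough to be tested for 29 of them, out of 11656 tested genes.

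The arrays compare 2 groups of primary OPCs from the pooled cerebral cortices of Sprague–Dawley rats at postnatal day 2. Both groups proliferated with bFGF and PDGF for 3 days and were transfected with Lipofectamine RNAiMAX when they were moved to differentiating medium. The siGPR17 OPCs received 50 nM of a siRNA pool against Gpr17, a G protein-coupled receptor of immature oligodendrocytes, and the siNEG OPCs a pool of RNAs without a target. Total RNA was taken 48 h later, at day 2 of differentiation, and 1 sample was hybridised on each of 4 one-color Agilent arrays, 2 per group. The comparison asks what lowering Gpr17 does to the transcriptome of differentiating OPCs.

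In most unstressed cells p53 is made and destroyed continuously, because the ubiquitin ligase Mdm2 and its relative Mdm4 bind it and Mdm2 sends it to the proteasome. DNA damage and other stresses free p53 from them. It then binds paired copies of a short DNA motif and raises genes of cell cycle arrest, DNA repair, apoptosis and metabolism, and Mdm2 itself. In neural precursors and in the oligodendrocyte lineage the pathway is known for its part in cell cycle exit and in cell death after injury.

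Signals are given in intensity units after each array was set to its 75th percentile, and fold changes are siGPR17 over siNEG on the log2 scale. The knockdown was visible in the target. Gpr17 gave signals of 1107 and 1113 on the siNEG arrays and of 652 and 639 on the siGPR17 arrays. Both siGPR17 arrays lay below both siNEG arrays, with a log2 fold change of -0.78 and an adjusted p of 0.21 in limma, above the threshold of 0.07. Over the 14 alternatives the adjusted p ran from 0.0152 to 0.665, and Gpr17 passed the thresholds in 2 of them, with normexp and with trend and robust eBayes. All 4 arrays were on 1 slide and in 1 scan, with the siNEG samples in 1 column of the slide and the siGPR17 samples in another, so that column and treatment cannot be told apart. The labels call the samples independent without saying whether they were separate cultures, and p-values measure only the spread between them, which may be technical.

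The largest differences among the members were those of Mgmt and Ptprv, a DNA repair gene and a phosphatase of the arrest arm, which were each over 3 times as bright in siGPR17 OPCs. The proapoptotic Bax, the death receptor Fas, the Akt inhibitor Phlda3 and the p53 inhibitor Mdm2 were higher by less. Dram1 and Bbc3, an autophagy gene and a killer of the Bcl-2 family, were lower. Of the 29 tested members 21 were higher and 8 lower in siGPR17 OPCs, against 52.0% of all tested genes that were higher. Their median log2 fold change was 0.20, beside 0.01 over all 11656 tested genes, and it was 0.17 without Mgmt and Ptprv. Both arrays of one group lay beyond both of the other, toward higher signals in siGPR17 OPCs, for 18 members, where 28.1% of all tested genes did so. Toward lower signals this held for 6 members, where the share of all tested genes was 25.3%. The remaining 5 members overlapped between the groups. The 21, the 18 and the medians of the members include Rrm2b. It entered the tested set through its brighter group alone, and a difference was built into its being there.

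A difference of 1.5-fold or more was reached by 4 members that were higher (2.43% of all tested genes) and by 1 that was lower (2.65%). The higher ones numbered from 2 with normexp background correction (0.558%) to 6 with spike-in scaling (4.38%) or without siNEG replicate 1 (4.56%), and the lower ones 0 to 1 (0.489% to 5.40%). Rrm2b is among the 6 under both of these alternatives. Only Mgmt and Ptprv reached 1.5-fold under all alternatives. The study asked for a 1.5-fold difference together with an adjusted p under 0.07. With limma, 0 of the 29 passed these thresholds, as did 0% of all tested genes. The study obtained its differentially expressed genes at these thresholds, so the limma fit here does not reproduce that list. An unadjusted p under 0.05 was reached by 9 members that were higher (7.43% of all tested genes) and by 2 that were lower (8.73%). With the trend and robust options of eBayes, 2 members passed the thresholds, with 1.58% of all tested genes. The same number passed when normexp background correction was used (0.961%), and 0 with the methods' t-test (0%). Since the members were picked on this contrast, nothing is read from these counts.

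**Figure D1:**
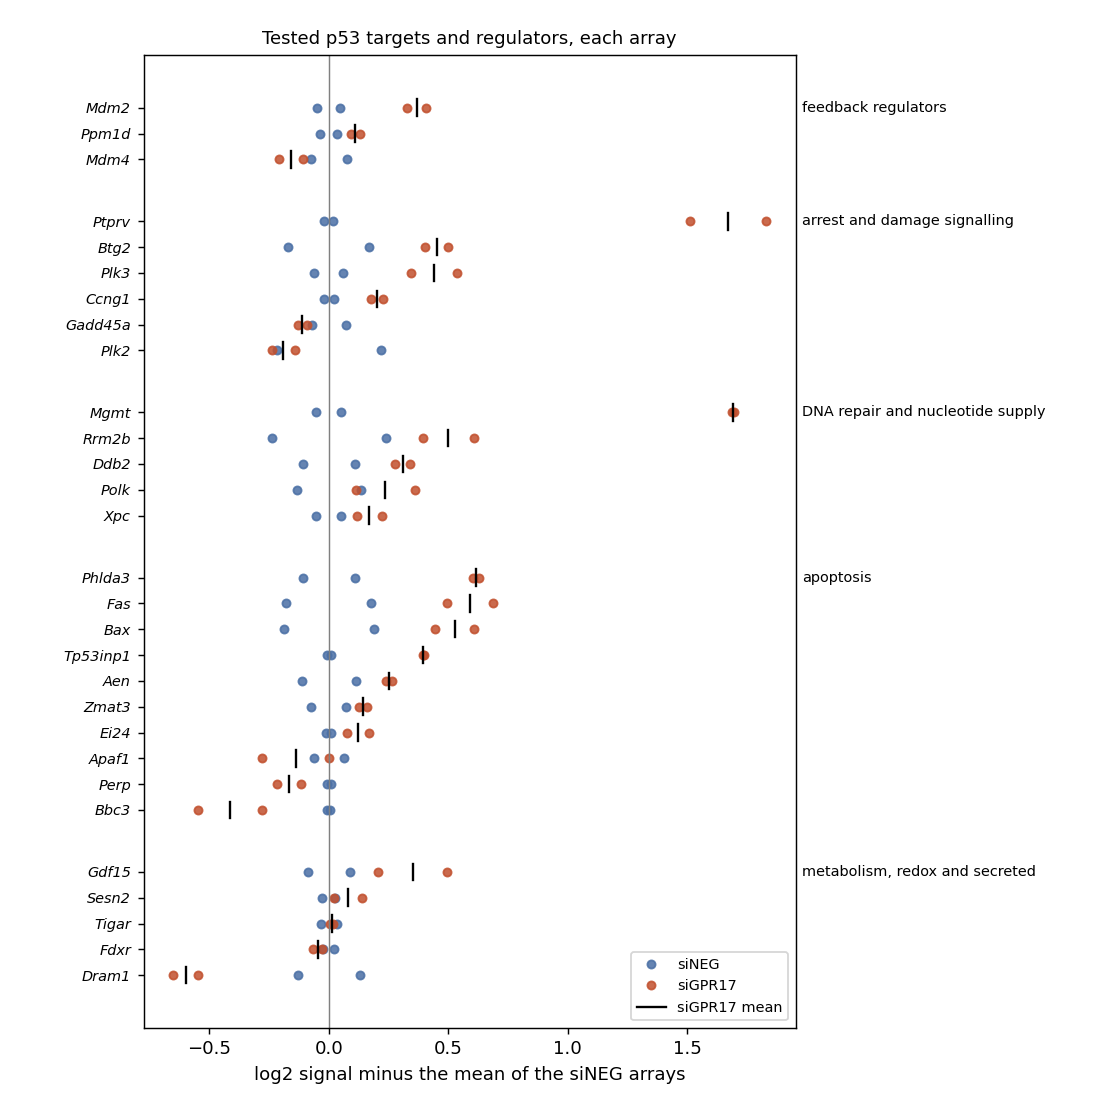
Signal of each of the 29 tested members on each array, on the log2 scale and relative to the mean of the siNEG arrays, by functional arm. Blue points are the siNEG arrays, orange points the siGPR17 arrays and black bars the siGPR17 mean. Mgmt and Ptprv stand at log2 fold changes of 1.69 and 1.67, and the other members lie between -0.60 and 0.62.

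**Figure D2:**
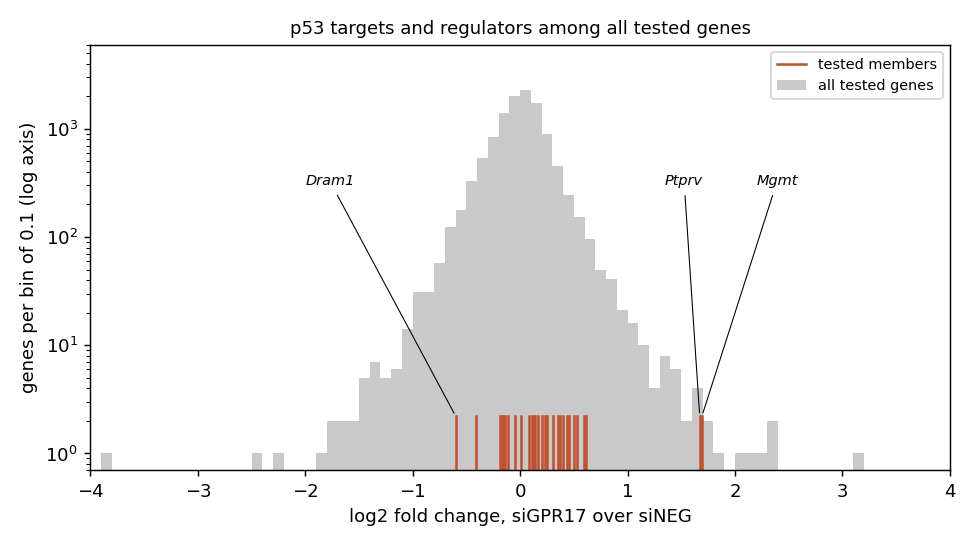
Log2 fold change of siGPR17 over siNEG for all 11656 tested genes (grey, number of genes per bin of 0.1 on a log axis), with the 29 tested members as orange lines. The median of the members is 0.20 and that of all tested genes is 0.01.

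The feedback regulators were all measured, and none of the 3 reached a fold change of 1.5. Mdm2, the ubiquitin ligase that p53 itself induces, gave 1897 and 2029.7 on the siNEG arrays and 2461 and 2604 on the siGPR17 arrays. Both siGPR17 arrays were brighter than both siNEG arrays, and the log2 fold change was 0.37 (SE 0.09). Mdm4, which binds and silences the activation domain of p53, had signals of 22774 and 25240.5 in siNEG and of 22227 and 20763 in siGPR17 OPCs. Its siGPR17 arrays were both the dimmer ones, by a margin smaller than the gap between the siNEG arrays, and the log2 fold change was -0.16 (SE 0.10). The other Mdm4 probes overlapped between the groups with log2 fold changes of -0.04 and 0.03. Ppm1d, the phosphatase that switches damage signalling off again, went from 1044 and 994 in siNEG to 1088 and 1114 in siGPR17 OPCs. The groups did not overlap, and the log2 fold change was 0.11 (SE 0.09). In bulk RNA of this kind, a lower signal can come from fewer cells of a type or from less RNA per cell, and these cannot be told apart.

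In the arrest and damage signalling arm, 4 of the 6 members were higher and 2 lower, and the median was 0.32 on the log2 scale. Ptprv encodes a receptor-type tyrosine phosphatase known as a p53 target in arrested rodent cells. Its signals were 141 and 145 on the siNEG arrays and 408 and 509 on the siGPR17 arrays, or 143 ± 2.65 against 458 ± 71.0 (mean ± SD, n = 2). The siNEG arrays were close together and the siGPR17 arrays were spread more widely, far above them. The ratio was 3.19-fold, a log2 fold change of 1.67 (SE 0.14). Plk2, a polo-like kinase induced by stress, was the lowest of the arm at a log2 fold change of -0.19 (SE 0.18), with 407 and 551 in siNEG and 429 and 401 in siGPR17 OPCs. Its siGPR17 arrays lay on both sides of the dimmer siNEG array, so that the groups overlapped. The antiproliferative gene Btg2 and the polo-like kinase Plk3 were higher, at log2 fold changes of 0.45 and 0.44, and Ccng1, the cyclin G1 gene, was higher at 0.20. The groups did not overlap for any of these. Gadd45a, a stress sensor that binds Pcna and Cdk1, stood at -0.11, with the siGPR17 arrays just below the siNEG arrays.

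All 5 members of DNA repair and nucleotide supply were tested, and siGPR17 OPCs gave the higher mean for each, with 0.31 as the median on the log2 scale. Rrm2b counts among the 5 only through its brighter group, as given below. Mgmt encodes the methyltransferase that takes alkyl groups off guanine in DNA and is used up in doing so. It gave 883 and 950.1 on the siNEG arrays and 2953 and 2966 on the siGPR17 arrays. The arrays of each group were close together, at 917 ± 47.3 and 2959.6 ± 9.64 (mean ± SD, n = 2), and the groups were far apart. The ratio was 3.23-fold, a log2 fold change of 1.69 (SE 0.09). Xpc, which recognises distorted DNA in nucleotide excision repair, was the closest to 0 in the arm, with 804 and 864 in siNEG and 905 and 972 in siGPR17 OPCs. Its groups did not overlap, and the log2 fold change was 0.17 (SE 0.10). Ddb2, the partner of Xpc in finding ultraviolet damage, stood at 0.31 without overlap, and Polk, a polymerase that copies past lesions, at 0.24 with overlap. Rrm2b, the subunit of ribonucleotide reductase that p53 induces, was well above background on both siGPR17 arrays and on neither siNEG array. Its signals were 18.4 and 13.2 in siNEG and 23.7 and 20.4 in siGPR17 OPCs, given array by array as an exception, after the values were seen. The ratio of 1.41 rests on siNEG signals at background, and the log2 fold change ran from 0.12 with normexp to 0.74 over the alternatives. Rrm2b entered the tested set through its brighter group alone, and a difference was built into its being there.

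The apoptosis arm is the largest, with 13 members. Tnfrsf10b and Eda2r, both receptors of the tumour necrosis factor family, had no matched probe. Pmaip1, which encodes the Bcl-2 antagonist Noxa, had a probe that no array showed well above background, with signals between 3.40 and 3.93. Of the 10 tested members 7 were higher and 3 lower, and the median log2 fold change was 0.20. Phlda3, which keeps the kinase Akt from the membrane, gave 94.2 and 81.0 in siNEG and 135 and 133 in siGPR17 OPCs. Both siGPR17 arrays were brighter, with a ratio of 1.53 and a log2 fold change of 0.62 (SE 0.11). Fas, the receptor that starts the caspase cascade from outside the cell, had signals of 31.7 and 24.8 on the siNEG arrays and of 39.4 and 45.1 on the siGPR17 arrays. The groups did not overlap, at a log2 fold change of 0.59 (SE 0.16). A dimmer Fas probe was well above background on both siGPR17 arrays and on neither siNEG array. This probe entered the tested set through its brighter group alone. A difference was built into its being there, and its size is not given. The median over the Fas probes takes this probe in, so it is left out of the range given for Fas below.

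Bbc3, which encodes the p53-induced killer Puma, was the lowest of the apoptosis arm. Its signals were 6323 and 6374 in siNEG and 5227 and 4347 in siGPR17 OPCs. The siNEG arrays nearly coincided and both siGPR17 arrays lay below them, with a log2 fold change of -0.41 (SE 0.12). Bax, which opens the outer mitochondrial membrane, was higher without overlap on both of its probes, at 0.53 on the brighter and 0.46 on the other. Tp53inp1, a stress protein that favours the proapoptotic phosphorylation of p53, was higher at 0.40 and had the smallest spread within groups of the arm, with 523 and 528 in siNEG and 693 and 691 in siGPR17 OPCs. It was given array by array after its values were seen. Aen, a nuclease of apoptotic cells, stood at 0.25, the RNA-binding Zmat3 at 0.14 and the endoplasmic reticulum protein Ei24 at 0.12, with groups that did not overlap. Perp, a membrane protein of desmosomes, was lower at -0.17 without overlap. Apaf1, the scaffold of the apoptosome, was at -0.14 with overlapping arrays, and its second probe was higher without overlap at 0.16.

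The metabolism, redox and secreted arm held the lowest value of all members and a median log2 fold change of 0.01. Sesn1, one of the sestrins that restrain mTORC1, had no matched probe. Dram1, a lysosomal membrane protein of autophagy, had signals of 23.1 and 27.6 in siNEG and of 16.1 and 17.3 in siGPR17 OPCs. Both siGPR17 arrays were dimmer, at a log2 fold change of -0.60 (SE 0.13), but only 1 of them was well above background. The value was -0.04 with normexp, an alternative that also took the spot median without the spatial correction and added an offset. Gdf15, a secreted factor of stressed cells, gave 46.9 and 53 in siNEG and 57.5 and 70.2 in siGPR17 OPCs. The groups did not overlap, and the log2 fold change was 0.35 (SE 0.14). Sesn2 stood at 0.08, the fructose bisphosphatase Tigar at 0.01 and the ferredoxin reductase Fdxr at -0.05. These 3 differed between groups by less than their SE.

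The promoters of the members were searched for the p53 half-site, the 10-base unit of the response element, in the RefSeq windows of the assembly GRCr8, which run from 250 bases before to 50 bases after each gene's start. A window was listed for 26 of the 33 members. The half-site reads the same on both strands, so that 1 scan covers both. It was found in 6 of the 26 members, and in 7.98% of the 33469 windows of the same length over all genes. A member counts once if any of its windows holds a site, here and for the full site, while the shares are over windows. A gene can have more than 1 window, as Gdf15 has, so the units differ. A full site was taken as 2 half-sites with no base between them and at most 2 letters off, none of them in the C and G of each core, and it can contain a half-site. It was found in 2 of the 26 members, Ccng1 and Aen, and in 0.335% of all windows. The windows of these 2 and of Ptprv and Mgmt, the members with the largest differences, are printed with their half-sites and full sites in capitals.
Ptprv (chr13:49120072-49120371, minus strand): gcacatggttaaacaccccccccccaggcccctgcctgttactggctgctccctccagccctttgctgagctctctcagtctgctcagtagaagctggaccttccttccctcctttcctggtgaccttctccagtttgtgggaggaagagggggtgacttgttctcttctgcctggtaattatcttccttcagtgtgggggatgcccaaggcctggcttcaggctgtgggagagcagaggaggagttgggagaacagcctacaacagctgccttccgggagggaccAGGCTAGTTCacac
Mgmt (chr1:201140582-201140881, plus strand): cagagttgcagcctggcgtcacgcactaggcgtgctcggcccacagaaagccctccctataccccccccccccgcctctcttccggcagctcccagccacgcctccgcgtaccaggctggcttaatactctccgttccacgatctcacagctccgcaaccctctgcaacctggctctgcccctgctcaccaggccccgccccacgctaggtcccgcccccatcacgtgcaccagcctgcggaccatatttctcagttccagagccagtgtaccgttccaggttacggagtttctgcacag
Ccng1 (chr10:25684827-25685126, minus strand): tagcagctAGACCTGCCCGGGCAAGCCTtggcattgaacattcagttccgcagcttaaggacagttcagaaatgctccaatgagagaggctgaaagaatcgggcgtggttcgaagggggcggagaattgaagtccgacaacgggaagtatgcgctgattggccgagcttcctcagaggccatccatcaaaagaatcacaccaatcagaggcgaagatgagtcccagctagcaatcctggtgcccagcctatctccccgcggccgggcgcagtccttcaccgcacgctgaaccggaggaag
Aen (chr1:142224283-142224582, plus strand): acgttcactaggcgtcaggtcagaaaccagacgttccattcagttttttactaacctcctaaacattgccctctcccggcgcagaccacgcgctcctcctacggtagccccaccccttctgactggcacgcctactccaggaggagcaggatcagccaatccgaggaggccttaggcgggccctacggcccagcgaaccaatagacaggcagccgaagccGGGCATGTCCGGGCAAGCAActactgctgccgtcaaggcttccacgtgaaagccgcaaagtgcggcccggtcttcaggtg
The Ccng1 window holds the full site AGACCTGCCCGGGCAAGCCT with 1 letter off, from 242 to 223 bases before the start, and the log2 fold change of the gene was 0.20. The Aen window holds GGGCATGTCCGGGCAAGCAA with 2 letters off, from 30 to 11 bases before the start, and its log2 fold change was 0.25. Ptprv has 1 half-site, AGGCTAGTTC, just after the start, and no half-site was found in the Mgmt window. Half-sites were also found in the windows of Ei24 (GGGCATGCCC), Gadd45a (GGGCTAGCCC) and Sesn1 (AAGCTTGTTT), whose log2 fold changes were 0.12 and -0.11 for Ei24 and Gadd45a. Outside the members, the Cdkn1a window holds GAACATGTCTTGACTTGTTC with 1 letter off, and the Pidd1 window AGCCTTGCCTAGGCAGGCTT with 2 letters off. A match is a run of letters, not a bound site, and a window without one says nothing of sites elsewhere in the gene.

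The windows also showed that 4 of the members lie close together on chromosome 13 of GRCr8, a stretch singled out after the positions were seen. From 47.03 to 49.74 Mb it holds Mdm4, Btg2, Ptprv and Phlda3 in that order, with log2 fold changes of -0.16, 0.45, 1.67 and 0.62. Of the 27 other tested genes with a window in this stretch, 10 were higher (28.1% of all tested genes) and 4 lower (25.3%) in siGPR17 OPCs without overlap, and 13 overlapped. Their median log2 fold change was -0.01, and they ranged from -0.25 to 0.42.

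Other genes of the pathway were taken from 4 further lists with 70 genes, of which 50 were tested. The lists were chosen with earlier results of these data known, so their counts are a description. Cdkn1a, which encodes the cell cycle inhibitor p21, is among these genes. Its value led to the list of members, so it is a description and is left out of the counts below. It gave 4125 and 4347 on the siNEG arrays and 11299 and 13126 on the siGPR17 arrays. The groups were far apart, at a ratio of 2.88 and a log2 fold change of 1.52 (SE 0.12), and the dimmer Cdkn1a probe stood at 1.29. Of the other 49 genes, 0 passed the thresholds with limma, and 4 that were higher (7.43% of all tested genes) and 5 that were lower (8.73%) reached an unadjusted p under 0.05. With the trend and robust options 1 passed, Pidd1 (1.58% of all tested genes), and likewise with normexp (0.961%). With the methods' t-test 0 passed (0%).

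Among the p53 family and upstream kinases, 2 of 7 tested genes were higher and 5 lower. Hipk2, a kinase that phosphorylates p53, was the lowest of this list, with 55955 and 42808 in siNEG and 37237 and 33956 in siGPR17 OPCs. The groups did not overlap, at a log2 fold change of -0.46 and an adjusted p of 0.29. Chek1, a checkpoint kinase, was the highest at 0.21, from 144 and 155 to 165 and 181, with an adjusted p of 0.38. Among the cofactors and modifiers, 6 of 11 were higher and 5 lower, from Cdkn2a, the locus of the Mdm2 inhibitor Arf, at -0.21 to the ubiquitin ligase gene Rchy1 at 0.32. Cdkn2a gave 324 and 286 in siNEG and 295 and 235 in siGPR17 OPCs, with overlap, and Rchy1 gave 127 and 90.0 against 133 and 134, without overlap. Their adjusted p-values were 0.54 and 0.45.

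Of the 17 tested genes other than Cdkn1a among the further targets, 11 were higher and 6 lower. After Cdkn1a, the next in size was Pidd1, which encodes a death domain protein that activates caspase-2 and which was named after its value was seen. Its signals were 871 and 1037 in siNEG and 1473 and 1631 in siGPR17 OPCs. The groups did not overlap on this probe, with a log2 fold change of 0.71 and an adjusted p of 0.21 in limma, which ranged from 0.0309 to 0.665 over the alternatives. The dimmer Pidd1 probe overlapped between the groups at 0.28. Cd82, a tetraspanin that restrains migration, was the lowest of the list, with 101 and 123 in siNEG and 89.6 and 57.6 in siGPR17 OPCs. Its siGPR17 arrays lay below the siNEG arrays but far from each other, and the log2 fold change of -0.63 had an adjusted p of 0.33.

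Cell cycle genes that p53 lowers through p21 and the DREAM repressor complex were lower in 13 of 14 tested cases (48.0% of all tested genes) and without overlap in 9 (25.3%), and their median log2 fold change was -0.19. The lowest was Cenpf, a kinetochore gene, with 488 and 485 in siNEG and 349 and 384 in siGPR17 OPCs. Both siGPR17 arrays lay below the siNEG arrays, at a log2 fold change of -0.41 and an adjusted p of 0.22. Ccna2, the gene of cyclin A2, was the only one above 0, at 0.01, with 2716 and 2230.5 in siNEG and 2348 and 2619.9 in siGPR17 OPCs and an adjusted p of 0.98. It was below 0 in 4 of the 12 alternatives. For all the cell cycle genes but Birc5, siGPR17 replicate 1 gave a lower signal than siGPR17 replicate 2, so the size of the median depends on the array. Relative to the siNEG mean, Ccna2 and Cdk1 were above 0 on siGPR17 replicate 2, at 0.09 and 0.03 on the log2 scale. Of the 14 genes, 0 passed the thresholds with limma or with any of the other tools, and 3 reached an unadjusted p under 0.05 in limma, all of them lower (8.73% of all tested genes). This list was chosen with earlier results of these data known, so its counts are a description.

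**Figure D3:**
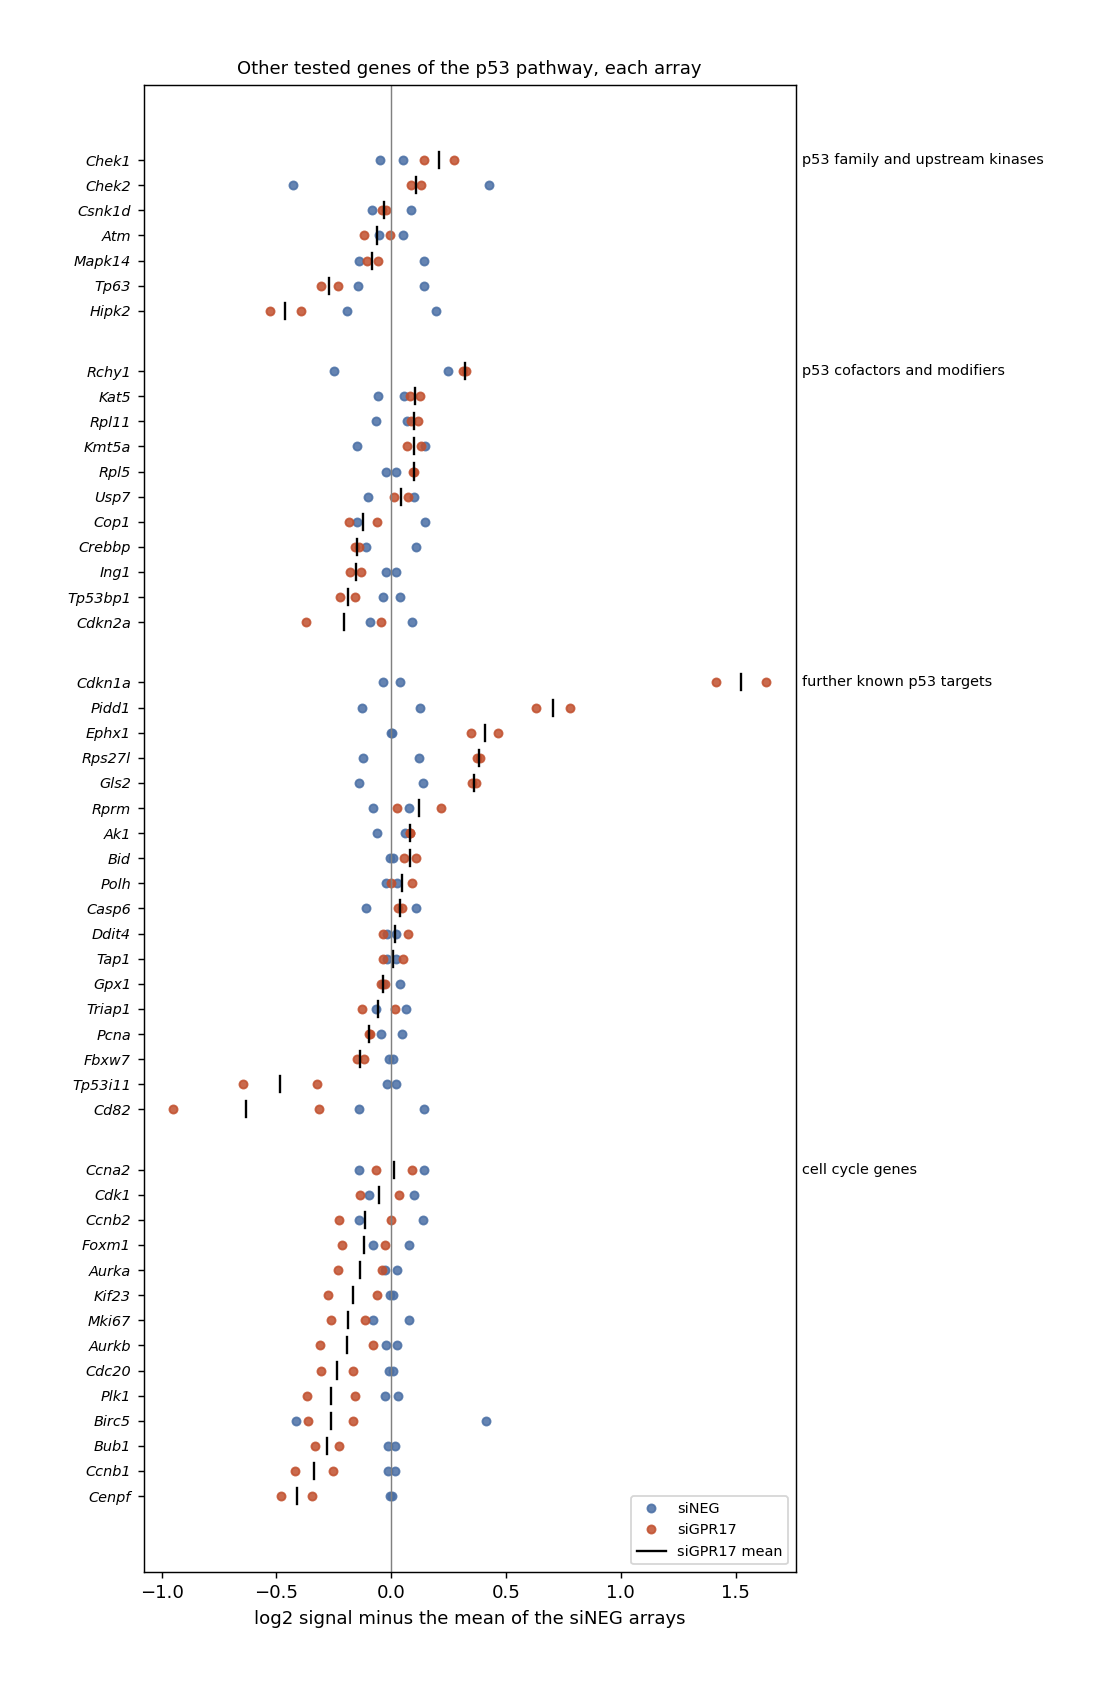
Signal of each of the 50 tested genes of the other pathway lists on each array, on the log2 scale and relative to the mean of the siNEG arrays. Blue points are the siNEG arrays, orange points the siGPR17 arrays and black bars the siGPR17 mean. Cdkn1a stands apart at 1.52, and 13 of the 14 cell cycle genes lie below 0.

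The labelled cell type was checked against markers. All 7 markers of OPCs and all 6 of myelinating oligodendrocytes were well above background on all 4 arrays. Beside the counts of markers below, 25.3% of all tested genes were lower without overlap and 28.1% higher. The marker that leads a list has its brightest probe, and signals of different probes do not rank genes by abundance. Of the OPC markers, led by Olig2, 5 were lower in siGPR17 OPCs without overlap, Gpr17 among them, and the summed signal was 212243 and 252368 in siNEG and 205734 and 207917 in siGPR17 OPCs. Of the myelinating markers, led by Mbp, 2 were higher and 4 lower without overlap, with sums of 285725 and 320940 against 336985 and 350857. Without Mbp, left out after the values were seen, the sums of the other 5 were 88547 and 93241 in siNEG and 80464 and 77984 in siGPR17 OPCs, the other way round. All 6 astrocyte markers were well above background, with the Aldoc probe the brightest, and 3 of them were lower in siGPR17 OPCs without overlap. Their summed signal was 108104 and 122192 in siNEG and 111717 and 113025 in siGPR17 OPCs. Without Aldoc, left out after the values were seen, the sum of the other 5 was 621 and 609.9 in siNEG and 403 and 442 in siGPR17 OPCs. In it Gfap, Aqp4 and Slc1a2 were lower without overlap, at log2 fold changes of -0.61, -1.35 and -0.22, while Aldh1l1 and Gja1 overlapped between the groups at 0.27 and 0.33. The microglial list, led by Cx3cr1, was well above background on all arrays for 4 of its 6 genes and not on any for Csf1r. Aif1 was lower in siGPR17 OPCs without overlap, at a log2 fold change of -0.56, and the other 5 genes overlapped. The summed signal of the list was 2869.7 and 1403 in siNEG and 1564 and 2092 in siGPR17 OPCs, so that the siNEG arrays lay on both sides of the siGPR17 arrays. Of the 6 neuronal markers 5 were well above background on all arrays, led by Tubb3, and 3 of these were lower in siGPR17 OPCs without overlap, while Slc17a7 stayed at background. The sums over the list were 3006 and 3432 in siNEG and 2844 and 2700.3 in siGPR17 OPCs. The endothelial markers Pecam1 and Cldn5 and the mural and fibroblast markers Dcn, Lum, Pdgfrb and Rgs5 stayed at background on all arrays. Of the 5 endothelial markers, led by Cdh5, Cdh5 and Tek were well above background throughout and higher in siGPR17 OPCs without overlap, and the sums over the list were 135 and 122 against 155 and 168. The 6 mural and fibroblast markers, led by Acta2, summed to 112 and 81.5 in siNEG and to 124 and 106 in siGPR17 OPCs. Acta2 and Col1a1 were well above background on all arrays, Acta2 higher in siGPR17 OPCs without overlap and Col1a1 with overlap. The part of these cells in the values of the members was not tested.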

How the data were processed

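The arrays were read with Agilent Feature Extraction 10.7.3.1, per the submitters' processing notes. The authors deposited for each array the processed intensity of every spot, from which that software had taken background and spatial trends, without normalization between arrays. The spot and background medians used for normexp are uncorrected intensities, per the file headers. The mean spot signal was not used here, so normexp, with an offset of 50, took the spot median.

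From these intensities log2 values were computed here, spots with an outlier flag were left out, spots of a probe were averaged and the 75th percentile of an array's non-control probes was taken off. It lay between 564.9 and 624 intensity units. Printed signals are these values times 1 factor common to all arrays. Each array had between 26997 and 28244 probes well above background, and 0 were saturated. The 28016 probes that were so on 2 or more arrays, whatever their group, were tested two-sided with limma 3.58.1 (lmFit, eBayes; R 4.3.3) and no block, with Benjamini-Hochberg adjustment over all of them. The number of arrays limits the precision. The thresholds, 1.5-fold and an adjusted p under 0.07, are those of the study's methods, which name a two-tailed t-test only for 2-group comparisons in general. This was run as an alternative, the methods' t-test. As a check of the code, the fits were run on simulated data with shifts larger than those of most members. This check says nothing of the results for these arrays.

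Transcript accessions of the files were looked up, versions removed, in the RefSeq genes of GRCr8, used for names only, and 21093 of 45565 probes received a symbol. The brightest tested probe stood for a gene. Where a group had no array well above background, no bound on the difference is given.

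The members and the lists were chosen with earlier results of these data known. Signals on every array are given for members that differed by 1.5-fold or more, for the highest and the lowest of each arm and for Mdm2, Mdm4 and Ppm1d, and outside the members for Gpr17, Cdkn1a and the highest and lowest of each list. Exceptions are named as such. The result of 1 gene of the lists is not reported here, and the counts leave it out. The full-site rule of the promoter search was set after the half-sites had been seen. Alternatives covered background correction, scaling, filters, spread model, test, replicate block, leaving out each array and the choice of probe.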

Additional observations from a re-analysis of the deposited data

How the results depend on the processing

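The direction of 24 of the 29 tested members was kept under all the alternatives that give a fold change. Rrm2b and Dram1 have no value under the filter on all 4 arrays. Tigar was -0.022 with normexp and ran from -0.020 to 0.044 when 1 array was left out (-0.020 without siNEG replicate 1), and Fdxr was 0.0014 with normexp and 0.082 with spike-in scaling. Gadd45a was 0.018 with spike-in scaling. Plk2 ran from -0.41 to 0.028 when 1 array was left out, above 0 without siNEG replicate 2. Apaf1 ran from -0.28 to 0.0021 in this way, above 0 without siGPR17 replicate 2, and was 0.011 with the median over its probes. Outside the members, Ccna2 was -0.0060 with normexp, -0.0058 with the median over probes, -0.13 without siNEG replicate 2 and -0.068 without siGPR17 replicate 2, up to 0.15 when another array was left out. The cause was not tested.

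The alternatives gave 1.63 to 1.82 for Mgmt, 1.22 to 1.83 for Ptprv, 0.32 to 0.50 for Mdm2 and -0.73 to -0.04 for Dram1. Fas, by its brighter probe, gave 0.21 to 0.77 and Phlda3 0.42 to 0.74, both lowest with normexp. Spike-in scaling moved the median of all genes by 0.13, and the median of the members was 0.33 under it, 0.19 above that of all genes. Leaving out 1 array in turn gave 0.15 to 0.23 for this median. Outside the members, the range over the alternatives was -0.80 to -0.65 for Gpr17, 1.41 to 1.65 for Cdkn1a, 0.49 to 0.83 for Pidd1, 0.14 to 0.34 for Chek1, -0.65 to -0.27 for Hipk2, 0.07 to 0.57 for Rchy1, -0.37 to -0.04 for Cdkn2a, -0.95 to -0.23 for Cd82 and -0.48 to -0.28 for Cenpf. Rchy1 was lowest without siNEG replicate 2, and Cdkn2a was closest to 0 without siGPR17 replicate 2. Cd82 was under 1.5-fold with normexp, with spike-in scaling and without siNEG replicate 2 or siGPR17 replicate 2.

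The members past the thresholds numbered 0 in limma (0% of all tested genes), 2 with normexp (0.961%) and 2 with eBayes set to trend and robust (1.58%). They were chosen on this contrast, so these counts and those below are a description. The other pathway genes past the thresholds numbered 0 in limma and likewise 2, or 1 without Cdkn1a, whose value is a description too. The same shares of all tested genes stand beside these counts. Over all tested probes, 1 passed in limma, 242 with normexp and 420 under trend and robust eBayes, and 0 with the methods' t-test, spike-in scaling, no filter on dim probes or the filter on all 4 arrays. Leaving out an array in turn gave 0 to 0. An unadjusted p under 0.05 was reached by 11 members in limma (16.2% of all tested genes), by 6 with the methods' t-test (14.4%), by 12 with trend and robust eBayes (20.8%) and by 15 with spike-in scaling (18.5%), the most under any alternative. It was reached by 4 to 11 when an array was left out (6.07% to 22.9%), where the lone array of a group was assumed to vary like the others, with 6 without siGPR17 replicate 1 (6.58%) and 4 without siGPR17 replicate 2 (6.07%).

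Arrays with the same replicate number also shared a row of the slide. They did not deviate together (r = -0.07 across probes), and the main fit did not treat them as pairs. With the replicate block, 0 probes and 0 members passed the thresholds and 13 members reached an unadjusted p under 0.05, with 11.0% of all tested genes. With 2 arrays against 2, the smallest two-sided p of an exact permutation test is 0.333. Probes near background, as for Rrm2b, Dram1, Fas and Pmaip1, limit what can be said of these genes.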
